A study of Mus musculus with 9 samples.

Results

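The cytosolic ribosomal proteins are the protein subunits of the ribosomes that translate nuclear messages in the cytoplasm. Their genes were taken by name from the deposited gene tables: symbols made of Rpl or Rps and a number, with or without a final a, x or l, together with Rplp0, Rplp1, Rplp2 and Rpsa. This gave 79 of 14971 listed protein-coding genes, 48 of the large subunit and 31 of the small subunit. RNA was sequenced from tibialis anterior, a fast muscle of the lower leg, of male C57BL/6J mice. Control mice, labelled Control in GEO and sham in the tables, were compared with orchiectomised mice (ORX, testes removed) and with orchiectomised mice treated with DHT (dihydrotestosterone, a potent androgen; ORX+DHT). Muscles were taken 4 weeks after treatment, and each of the 3 groups had 3 libraries of polyA RNA, which the labels call biological replicates without naming the animals. All groups share the strain, the sex and the muscle, and the p-values below measure only the spread between these libraries.

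Nearly every ribosomal protein is built into the ribosome in equal numbers, and the genes are known for being transcribed and translated together. Their messages begin with a terminal oligopyrimidine tract, an unbroken run of C and T (U in RNA) at the cap, through which mTORC1 signalling and the binding protein LARP1 control their translation and stability. In striated muscle Rpl3l, a paralog of Rpl3, is known to take the place of Rpl3 in a share of the ribosomes. Skeletal muscle fibres lose and regain ribosomes with atrophy and growth, and androgen is a known growth signal of this tissue.

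Runs of C and T near the annotated starts were searched in the RefSeq promoter windows (build GRCm38.p6), which were matched by symbol for 59 of the 79 genes. A run counted in this way need not lie at the cap. Within 50 bases on either side of the annotated start, on the gene's strand, a C/T run of at least 8 bases was present in 57 of 71 member promoters (80.3%), against 35.7% of all 32851 promoters of the same length. The median longest run was 10 bases in the family and 7 over all promoters. The following 30-base windows show the run in capitals for the S6 kinase substrate Rps6 and the stalk protein gene Rplp2, for 3 members that stand at the edges of the results below (Rps27, Rpl15, Rpl36a) and for the muscle paralog Rpl3l.
Rps6 (chr4:86857349-86857378, minus strand): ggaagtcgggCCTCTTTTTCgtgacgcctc
Rplp2 (chr7:141447636-141447665, plus strand): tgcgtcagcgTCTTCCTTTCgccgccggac
Rps27 (chr3:90213631-90213660, minus strand): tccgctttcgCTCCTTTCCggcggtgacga
Rpl15 (chr14:18270967-18270996, minus strand): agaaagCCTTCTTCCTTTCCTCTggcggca
Rpl36a (chrX:134585673-134585702, plus strand): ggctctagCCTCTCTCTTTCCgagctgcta
Rpl3l (chr17:24727846-24727875, plus strand): tggtggggaggCCCCTTCCTaacctgcagg
In Rps6, Rplp2, Rps27 and Rpl15 the run spans the annotated start, while in Rpl36a it begins 28 bases and in Rpl3l 32 bases downstream of it. A second annotated start of Rpl3l, with its window at chr17:24732676-24732705, has a longest run of 4 bases. The family also holds members without a run of 8 bases, such as Rps28 with 5 and Rps4x and Rplp0 with 7 each. In Rpsa 7 bases were counted, but its run continues past the edge of the 50 bases searched. Runs that cross this edge were counted only inside it, in members and in all promoters. Rpl3 and Rplp1 are named here without a window.

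Other short motifs were searched on both strands of the window from 250 bases before to 50 bases after each start. The letters CCGGAAG, the core of ETS family sites, were present in 26 member promoters (36.6%) and in 8.86% of all promoters. AAGATGG, the core of YY1 sites, was found in 11 member promoters (15.5%), against 6.34% of all. It can overlap the first motif, since that ends and this begins with AAG. TATAAA was present in 6 member promoters (8.45%), against 13.6% of all. These matches describe letters in a window and are not binding sites.

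The family is made of short genes scattered over the genome. Its members lie on 19 chromosomes, and their annotated mRNAs (GENCODE M21, GRCm38) have a median length of 780 bases, from 345 in Rps27 to 5179 in Rps15a, against a median of 2897 bases over 14917 listed genes. The median coding length was 453 bases. Inside 29 members lie 56 annotated snoRNA genes, small RNAs that guide modification of ribosomal RNA. Processed copies of these genes are common: 67 members share at least 75 bases at 98% identity or more with a transcript of another gene, and in 49 this covers at least 50% of the mRNA. Reads of such members can be lost to, or gained from, those copies, so their levels are uncertain. Rpl3l, Rpl4 and Rps27l have no such copy.

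Not every member could be measured. Rpl23a had 1 read in all 9 libraries together, Rpl24 had 0 or 1 read in each library and Rps10 0 to 4 reads. All 3 encode standard subunits of the ribosome, and they have near-identical sequence elsewhere over 84.1%, 83.5% and 68.3% of their mRNAs. Rpl24 and Rps10 also share 47.0% and 20.6% of their exon bases with another gene on the same strand. Rpl39l, a paralog of Rpl39 known from the testis, was listed only beside the control libraries, with a single read in Control 3 and 0 reads in the other 5 libraries of that table. These 4 genes were below the level tested. Rpl13a, of which 29.4% of the exon bases are shared with a same-strand gene, passed the filter in both comparisons with control libraries and not in ORX+DHT against ORX. The number of members tested was thus 75 where ORX or ORX+DHT was set against control and 74 where both orchiectomised groups were compared.

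Libraries held 1340209 to 1682235 reads over the listed genes, with at least 1 read for 12398 to 13000 genes. Fast fibre genes marked all 9 libraries as muscle: the summed level of 9 fibre markers was 306163 to 355746 normalised counts in the controls, with ORX at 263456 to 274624 and ORX+DHT at 277286 to 298891. Only 3 of 6 lymphocyte markers were listed, and their sum was 0 to 3.41. Control 1 stood apart from the other libraries in the level of the family, and fold changes against control of the family, the lists and the members described are given with and without it. In bulk muscle, fewer cells of a type and less RNA per cell cannot be told apart.

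Levels between genes were compared per length, as RPKM computed from the recovered reads, with the length of the shortest principal transcript and the total over listed genes, taken as the median of 9 libraries. Rplp1, an acidic protein of the ribosomal stalk that recruits elongation factors, was the highest at 538 (454 to 981). Rpl3l followed at 459 (405 to 577), and Rps14, on the platform of the small subunit, at 360 (334 to 628). Rpl4, which lines the exit tunnel, stood at 324 (303 to 419). The ranges of these 4 genes overlap with their neighbours in the order. The other stalk genes lay lower, with Rplp0 at 277 and Rplp2 at 270. At the low end of the tested members were Rpl13a at 6.28 (3.47 to 10.7), Rpl3 at 20.3 (13.3 to 25.1) and Rps20 at 25.7 (18.7 to 45.1). The level of Rps20 depends on an annotated mRNA of 3706 bases for a coding length of 357 bases. Since reads of most members can be lost to near-identical copies, the low end of this order is the less certain one.

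**Figure D1:**
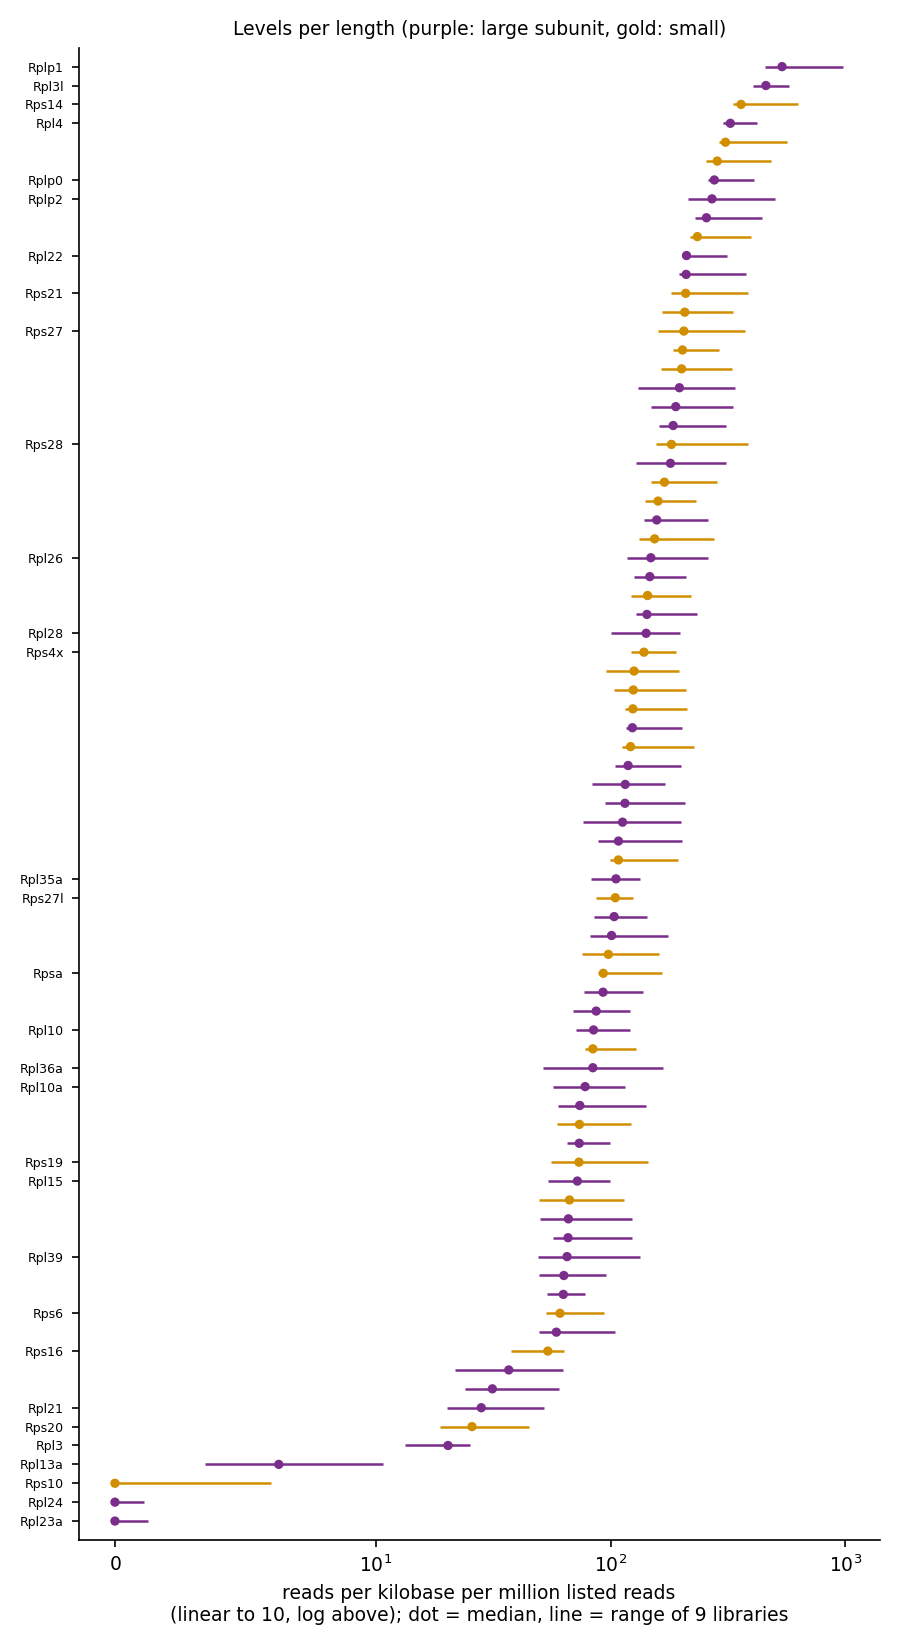
Level of each of 78 cytosolic ribosomal protein genes on the horizontal axis, in RPKM over listed genes (linear up to 10, logarithmic above), with 1 line per gene and names given for some of them. Dots are medians and lines the range of 9 libraries, purple for the large and gold for the small subunit; Rplp1 and Rpl3l are at the top, and Rpl23a, Rpl24 and Rps10 have a median of 0.

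The family moved together in 1 library. Ribosomal protein reads made up 1.31% of all listed reads in Control 1, 0.743% in Control 2 and 0.793% in Control 3. In ORX the shares were 0.806%, 0.834% and 0.928%, and in ORX+DHT 0.787%, 0.802% and 0.799%. Control 1 was the highest of the 9 libraries, and the other 8 lay between 0.743% and 0.928%. As group values the shares were 0.948% ± 0.314 (SD, n = 3) in controls, 0.856% ± 0.0638 in ORX and 0.796% ± 0.00792 in ORX+DHT, so that the spread of the controls, which comes from Control 1, is larger than any difference between groups.

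The same was seen gene by gene on the scale of log2(normalised count + 1), over the 75 members with a mean of at least 10. Relative to each gene's mean over 9 libraries, the family median was 0.86 in Control 1, -0.17 in Control 2 and -0.077 in Control 3. It was -0.15, -0.096 and 0.048 in the ORX libraries and -0.13, -0.072 and -0.086 in the ORX+DHT libraries. Large- and small-subunit genes did not part, with medians of 0.84 and 0.86 in Control 1. Members with and without near-identical copies also had close medians there, 0.85 over 64 genes and 0.87 over 11 genes. Of the 75 members, 74 had their highest value in Control 1, against 27.3% of all genes, and the exception was Rpl3, which was highest in ORX 2.

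**Figure D2:**
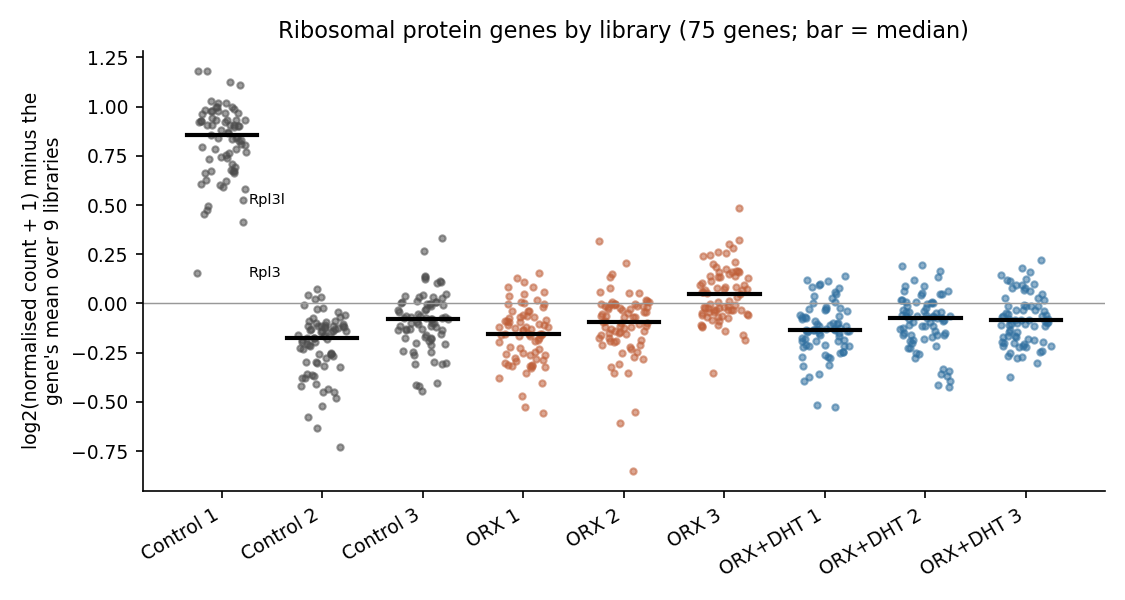
Difference of each of 75 ribosomal protein genes from its own mean over 9 libraries on the log2(normalised count + 1) scale, by library. Each point is a gene and each bar the median; the bar of Control 1 is at 0.86 and the other 8 bars lie between -0.17 and 0.048, with Rpl3 and Rpl3l marked among the lowest points of Control 1.

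Against the mean of the other 2 controls, members were higher in Control 1 by a median of 1.01 on the log2 scale, a ratio of 2.01, with quartiles of 0.80 and 1.15. The median over all genes was 0.0057. All 75 members were above both other controls in Control 1, as were 41.2% of all genes. The largest differences were those of Rpl36a at 1.48 and Rpl39 at 1.38, followed by Rps28 and Rps27. Rpl39 encodes a short protein that lines the peptide exit tunnel, and its normalised counts were 137 in Control 1, 45.3 in Control 2 and 59.6 in Control 3. For Rps28 they were 175, 70.8 and 64.6. At the other end were Rpl3 at 0.44, Rpl3l at 0.47, Rps27l at 0.51 and Rpl4 at 0.54. Both members of the Rpl3 pair and the paralog Rps27l were thus the 3 least raised members. Controls 2 and 3 differed from each other by a family median of -0.075. Rpl4 here, and Rpl6, Rpl7, Rpl12, Rps24, Rps25, Rps26 and Rps27a below, were chosen for mention after their values were seen.

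Message length moved with the height of Control 1 across all genes. Among genes with an mRNA of up to 1000 bases, the median difference between Control 1 and the other controls was 1.03 for 50 members. For 438 other genes of that length it was 0.80, and 26.3% of them exceeded 1.01, the median of all 75 members. Over 8107 other genes longer than 1000 bases the median difference was -0.036. In the shortest class, up to 600 bases, 22 members had a median of 1.03 and 67 other genes 0.90. Other genes then went down class by class to -0.43 above 5000 bases, whereas the members did not. The 6 members of over 1500 and up to 2000 bases had a median of 1.04, where 956 other genes had 0.34. These lengths, also used for r below, are of 1 principal transcript per gene, and some long members also have a shorter one. It has 802 bases in Rpl15 and 899 in Rpl21, both counted in that class, and 640 in Rps15a, the member above 5000 bases. The class of these members depends on the transcript taken. Pearson's r between log2 length and this difference, taken over genes of the same libraries and given as a description, was -0.27 for 75 members and -0.57 for 8545 other genes. Ribosomal proteins of mitochondria, a separate set of 77 genes, had medians between 0.43 and 1.09 in the same length classes. Of 9 fibre markers, 5 were higher and 4 lower in Control 1 than in both other controls, with short Mylpf at 27521 normalised counts in Control 1 against 13768 and 13253 in the other controls, and long Myh4 at 79195 against 100467 and 98074. Among the other marker lists, summed erythroid markers were 248 in Control 1 against 157 and 146 (4 of 5 higher), and adipocyte markers 36.2 against 9.95 and 9.93 (mostly Cfd, with Adipoq, Plin1 and Cidec at 0 to 3.75 and Lep at 0 in all 3 controls). Erythroid sums were 87.8 to 252 (ORX) and 184 to 211 (ORX+DHT), and adipocyte sums 30.7 to 48.8 and 16.2 to 56.3. Tendon markers summed to 441 in Control 1 against 329 and 378 (3 of 5 higher). On the other side, pericyte markers summed to 808 against 998 and 953, with 2 of 4 lower and 1 higher than in both other controls. Endothelial markers summed to 742 against 847 and 801 but were split, with 3 of 6 lower and 2 higher. The part of message length and of these cell types in the height of the family in Control 1 was not tested.

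**Figure D3:**
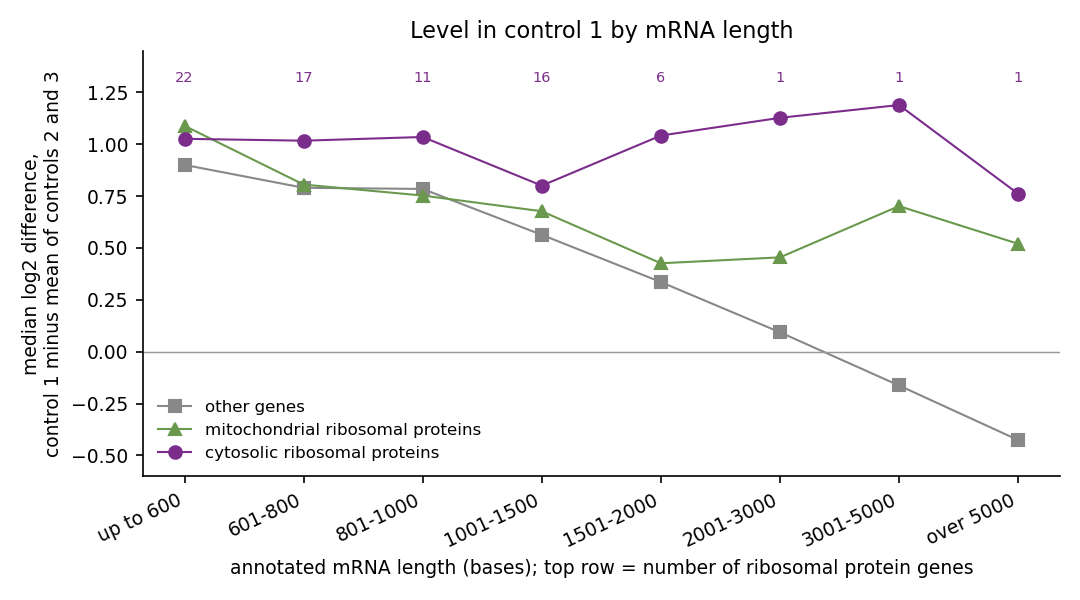
Median log2 difference between Control 1 and the mean of Controls 2 and 3 (vertical axis) by class of annotated mRNA length in bases (horizontal axis), for cytosolic ribosomal protein genes (purple circles, numbers on top), mitochondrial ribosomal protein genes (green triangles) and all other genes (grey squares). Other genes go from 0.90 in the shortest to -0.43 in the longest class while the cytosolic ribosomal proteins stay between 0.76 and 1.19. The 3 longest classes hold 1 member each, and the longest of them, Rps15a, also has a principal transcript of 640 bases.

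Outside Control 1 the members varied less. The median SD of a member's log2 value was 0.343 over 9 libraries and 0.151 over the 8 libraries without Control 1. Members had 9.9 to 919 reads per library on average over those 8, with a median of 134, and their SD was a median of 1.13 times that of read counting alone, against 1.09 times for all genes. These ratios set the spread between libraries beside counting noise and do not show its source. The members with the most spread beyond counting were Rpl3l, at 2.26 times, and Rpl4, at 2.21 times, which are among those with the most reads.

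Orchiectomy against control asks what follows when testicular androgen is taken away. No member passed the test (limma on log2(normalised count + 1), Benjamini-Hochberg over all 8631 genes, adjusted p under 0.05), where 0.0579% of all genes did. The family median log2 fold change was -0.26, with 3 of 75 members above 0, against -0.0077 for all genes. Without Control 1 the median turned to 0.078, with 52 of 74 members above 0, and again 0 members passed, where 0.592% of all genes did. The direction of the family in this comparison was thus set by 1 control library. With the trend over mRNA length removed from each library, the median was -0.0032. The smallest adjusted p of a member was 0.690, and 1 member, Rpl3l, had an unadjusted p under 0.05, which is 1.33% of the members against 7.21% of all genes. On the recovered reads 0 members passed by edgeR, where 0.0695% of all genes did, and 0 by DESeq2, where 0.324% did.

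Single members lay on both sides of the family. Highest were Rpl3 (0.35, SE 0.22), Rps16 (0.034, SE 0.22) and Rpl10a (0.0043, SE 0.26), and lowest Rpl13a (-0.75, SE 0.37), Rpl21 (-0.55, SE 0.33) and Rps28 (-0.49, SE 0.31). Without Control 1 they were 0.50 for Rpl3, 0.26 for Rps16, 0.33 for Rpl10a, -0.19 for Rpl21 and -0.038 for Rps28, and Rpl13a was below the level tested. The normalised counts of Rps16 were 117, 87.3 and 62.6 in controls and 85.4, 84.4 and 96.0 in ORX. Those of Rpl13a were 18.7, 9.95 and 12.9 in controls and 7.9, 5.1 and 10.8 in ORX, which overlap. With a mean of 13.9 in controls and 7.91 in ORX, Rpl13a passed the filter here only through the controls. Its place as the lowest member is thus tied to the filter. Groups did not overlap in 3 of 75 members (4%), against 14.3% of all genes, and these were Rpl7, Rpsa and Rpl3l, all lower in ORX, as were 8.06% of all genes. Control 1 was the highest library in 74 of the 75 members, so in those ORX could not lie wholly above control. The shared direction, and the share in either direction, were thus limited beforehand by that library. The fold change of Rpsa was -0.42 and without Control 1 -0.075. This gene, which doubles as the laminin receptor, had 443, 219 and 218 in controls and 196, 210 and 216 in ORX, so that its upper ORX value lies next to the lowest control. Rpl7 had 407, 259 and 256 in controls and 237, 243 and 243 in ORX.

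With Control 1 left out, ORX differed from control at an unadjusted p under 0.05 in 6 members, 8.11% of those tested, against 10.6% of all genes, with adjusted p of 0.341 to 0.458 (limma). They were Rpl3 (0.50), Rps27 (0.35), Rpl28 (0.33), Rps27a (0.33), Rpl6 (0.29) and, in the other direction, Rpl3l (-0.20). Rpl28 had 131 and 116 normalised counts in Controls 2 and 3 and 148, 155 and 162 in ORX. Rps27a, which is made as a fusion with ubiquitin, had 73.0 and 72.5 in those controls and 98.2, 87.8 and 89.3 in ORX. In both genes Control 1 lay above every ORX library, at 255 and 171. The median standard error of a member was 0.251 with all libraries and 0.143 without Control 1, and 0 members were past 2-fold in either fit.

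DHT in orchiectomised mice, against ORX alone, uses no control library. Again 0 of 74 members passed the test, where 4.08% of 8770 genes did. The family median was -0.031, with 26 of 74 members above 0 and a range of -0.32 to 0.31, against 0.0062 for all genes. Without ORX 3, the highest library of its group, the median was 0.032. Standard errors were the smallest of the 3 comparisons, with a median of 0.125, and the quartiles of the members were -0.11 and 0.044. At an unadjusted p under 0.05 stood 2 members (2.7%, against 14.3% of all genes), Rpl15 and Rpl26, and the smallest adjusted p was 0.267. By edgeR and DESeq2 0 members passed, where 4.17% and 2.52% of all genes did.

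The members furthest from the family median on the lower side were Rpl15 (-0.32, SE 0.13), Rpl26 (-0.30, SE 0.13) and Rpl36a (-0.29, SE 0.17). Rpl15 had 86.4, 88.7 and 88.5 normalised counts in ORX and 79.0, 63.8 and 69.2 in ORX+DHT. Rpl26, a protein at the exit tunnel that is also known to bind the p53 message, had 118, 110 and 135 in ORX and 108, 93.8 and 91.9 in ORX+DHT. In both genes every ORX+DHT library was below every ORX library. On the upper side were Rpl35a (0.31, SE 0.15), Rpl21 (0.30, SE 0.23) and Rps6 (0.18, SE 0.13). Rpl35a had 76.6, 58.0 and 56.2 in ORX and 78.0, 79.3 and 77.1 in ORX+DHT. Rps6, the subunit phosphorylated by S6 kinase downstream of mTORC1, had 74.6, 70.8 and 72.0 in ORX and 89.2, 78.3 and 80.0 in ORX+DHT. Groups did not overlap in 8 of 74 members (10.8%), against 19.5% of all genes. With DHT 5 of them were lower, where 9.13% of all genes were, and Rpl12, Rpl15, Rpl26 and Rps26 were among these. The other 3, Rpl35a, Rps6 and Rps14, were higher, where 10.4% of all genes were.

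DHT-treated orchiectomised mice against controls asks how far the treated mice stand from intact ones, and shares its libraries with the other comparisons. Of 75 members, 0 passed the test, where 0.0349% of 8595 genes did. The family median was -0.28, with 2 of 75 members above 0, against -0.0051 for all genes, and without Control 1 it was 0.038, with 50 of 75 above 0 and again 0 members past the test, where 0.768% of all genes passed. With the length trend removed the median was -0.0087. Highest were Rpl3 (0.072, SE 0.25), Rpl35a (0.037, SE 0.22) and Rpl28 (-0.018, SE 0.25), and lowest Rpl26 (-0.55, SE 0.26), Rps19 (-0.49, SE 0.30) and Rps21 (-0.47, SE 0.25). Rps19, the gene most often mutated in Diamond-Blackfan anaemia, had 152, 57.5 and 75.5 normalised counts in controls and 73.0, 52.2 and 62.2 in ORX+DHT. Without Control 1 the fold changes of these members were 0.22 for Rpl3, 0.30 for Rpl35a, 0.33 for Rpl28, -0.22 for Rpl26, -0.089 for Rps19 and -0.12 for Rps21. The smallest adjusted p of a member was 0.736, and 0 members had an unadjusted p under 0.05 (limma), against 6.48% of all genes. By edgeR and DESeq2 0 members passed, where 0.0465% and 0.151% of all genes did. Groups did not overlap in 4 of 75 members (5.33%), against 14.0% of all genes: Rpl3l, Rps25, Rpl22 and Rpl7, all lower in ORX+DHT, as were 7.12% of all genes. Here too Control 1, the highest library in 74 members, kept ORX+DHT from lying wholly above control in those. Without Control 1, 2 members (2.67%, against 9.87% of all genes) had an unadjusted p under 0.05, Rpl28 (0.33) and Rps24 (0.29), with adjusted p of 0.379 and 0.394 (limma).

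**Figure D4:**
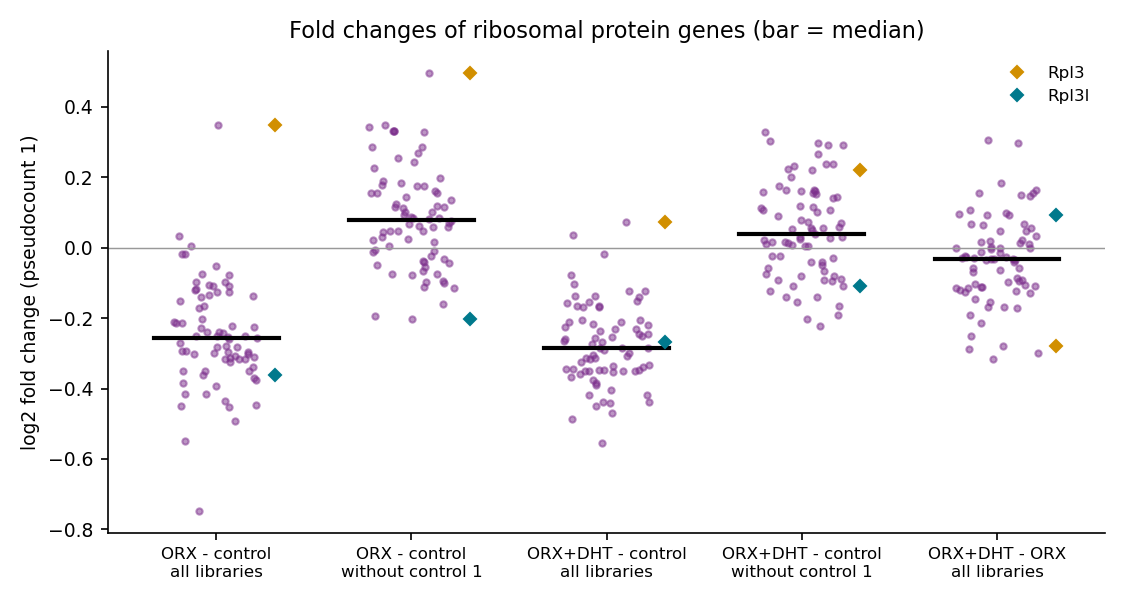
Fold changes (log2, pseudocount 1) of the tested ribosomal protein genes in the 3 comparisons, with all libraries and, where controls take part, without Control 1. Each small point is a gene, each bar the median, and diamonds mark Rpl3 (gold) and Rpl3l (teal); the bars of the comparisons with control are at -0.26 and -0.28 with all libraries and at 0.078 and 0.038 without Control 1.

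Rpl3 and Rpl3l are the pair in which a muscle-specific subunit stands beside the general one, and their ratio within a library does not depend on how libraries were scaled. Rpl3 lies at chr15:80077791-80091868 (minus strand) and Rpl3l at chr17:24727820-24736143 (plus strand), with 10 exons each. Their coding sequences (GENCODE M21) have 1209 and 1221 bases and are identical at 74.3% of 1206 aligned bases. The first 90 coding bases, which cross 1 intron in both genes, are printed to show how the reads of the paralogs are told apart, with the 21 differing bases in capitals.
Rpl3 (chr15:80082496-80083326, minus strand): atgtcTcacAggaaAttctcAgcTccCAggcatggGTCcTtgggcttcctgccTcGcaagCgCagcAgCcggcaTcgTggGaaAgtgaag
Rpl3l (chr17:24727884-24728403, plus strand): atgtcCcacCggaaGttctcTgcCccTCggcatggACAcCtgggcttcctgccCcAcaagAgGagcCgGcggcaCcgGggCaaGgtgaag
Rpl3l shares no stretch at 98% identity with another gene, whereas 89.8% of the Rpl3 mRNA has such a copy. The Rpl3 count may therefore miss or gain reads, and the ratio may be too high or too low. Whether this is equal in all libraries was not tested.

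Rpl3l was the more abundant of the pair in all 9 libraries. Its normalised counts were 1328, 971 and 942 in controls, 806, 785 and 909 in ORX, and 924, 878 and 858 in ORX+DHT. All ORX and ORX+DHT values lay below all control values. Rpl3 had 42.5, 27.6 and 34.8 in controls, 38.3, 47.8 and 47.1 in ORX, and 26.3, 43.5 and 41.5 in ORX+DHT, from 25 to 57 reads per library. The ratio of Rpl3l to Rpl3 was 31.3, 35.1 and 27.1 in controls and 21.1, 16.4 and 19.3 in ORX, with no overlap, and Control 1 lay between the other controls. In ORX+DHT it was 35.1, 20.2 and 20.7, with 1 library at the level of the controls and 2 at the level of ORX.

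Markers of some other cell types moved with this ratio between control and ORX. The summed level of 6 fibroblast markers was 1936 to 3926 normalised counts in controls and 4306 to 5651 in ORX, and 3 of the 6, Col1a1, Col1a2 and Lum, did not overlap. For 5 tendon markers the sums were 329 to 441 and 458 to 766 (2 of 5 not overlapping), and for 5 Schwann cell markers 141 to 150 and 190 to 216 (2 of 5). Satellite cell and adipocyte markers also had 2 of 5 higher in all ORX than in all control libraries. Their sums overlapped, at 55.3 to 68.7 and 67.4 to 84.4, and at 9.93 to 36.2 and 30.7 to 48.8. Macrophage markers had 1 of 6 higher, and endothelial, pericyte, lymphocyte and erythroid markers 0. Over all genes tested, 14.3% did not overlap in this comparison. In ORX+DHT the sums were 2382 to 3307 for fibroblasts, 307 to 385 for tendon and 141 to 191 for Schwann cells. Each was lowest of that group in ORX+DHT 1, the library with the ratio of 35.1. The same library was also lowest of the group for fibre markers (277286 against 297824 and 298891). So it was for satellite cell, endothelial, pericyte, erythroid and adipocyte markers, but not for macrophage markers (57.8 against 57.0 and 76.1). Of 9 fibre markers, 3 were lower in all ORX than in all control libraries, as were 8.06% of all genes tested. No marker of these lists was at 0 in all libraries, and the part of these cell types in the ratio was not tested.

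On the log2 scale (pseudocount 1) the ratio was 4.91 ± 0.18 (SD, n = 3) in controls, 4.20 ± 0.18 in ORX and 4.57 ± 0.44 in ORX+DHT. The difference between ORX and control was -0.71, with a two-sided exact permutation p of 0.1, the smallest that 3 against 3 libraries can give, and -0.70 without Control 1. ORX+DHT differed from ORX by 0.37 and from control by -0.34, each with an exact permutation p of 0.3. As a share of the reads of the pair, Rpl3 took 3.10% (Wilson 95% interval 2.22 to 4.30), 2.77% (1.88 to 4.06) and 3.56% (2.57 to 4.91) in controls. In ORX the shares were 4.53% (3.33 to 6.14), 5.74% (4.44 to 7.38) and 4.93% (3.83 to 6.34). These intervals cover counting error only, and those of the 2 groups overlap, except for Controls 1 and 2 against ORX 2. The ORX+DHT shares were 2.77%, 4.72% and 4.62%. In the fits of single genes, ORX stood below control by -0.36 for Rpl3l (SE 0.16, limma adjusted p 0.690) and above it by 0.35 for Rpl3 (SE 0.22, limma adjusted p 0.750), both on the log2 scale. Both kept their sign without Control 1, at -0.20 and 0.50, and in the other alternatives run. The difference was therefore not past the test for either gene.

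**Figure D5:**
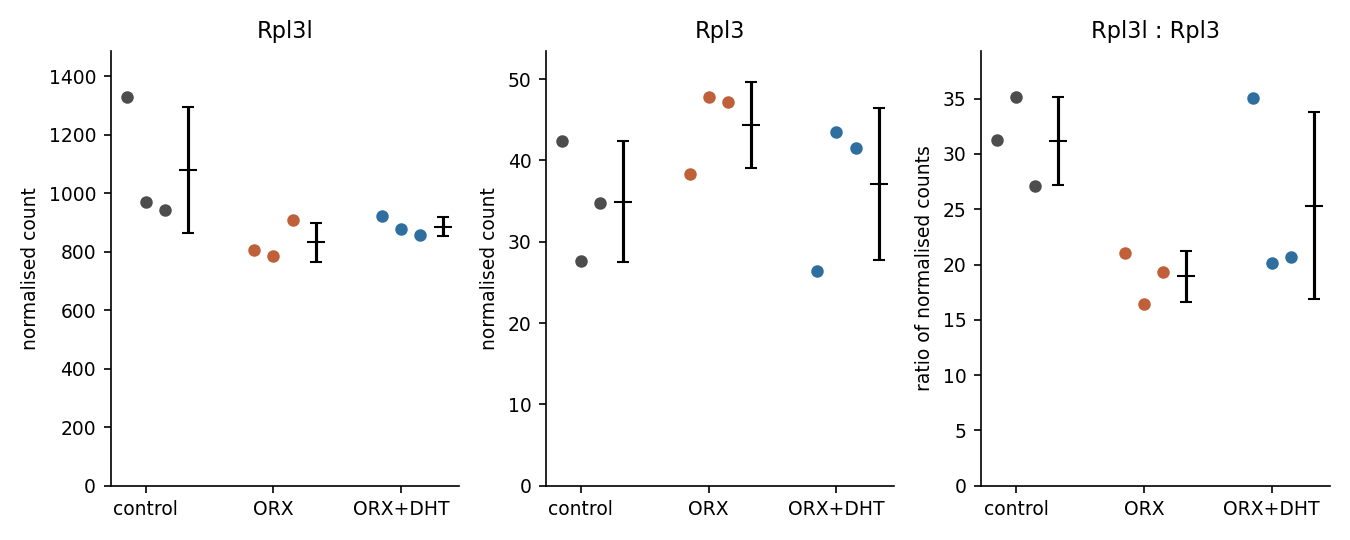
Normalised counts of Rpl3l (left) and Rpl3 (middle) and the ratio of Rpl3l to Rpl3 (right) by group, with 1 point per library and the mean ± SD of 3 libraries as bars. The ratio is 27.1 to 35.1 in controls and 16.4 to 21.1 in ORX, while ORX+DHT holds 1 library at 35.1 and 2 near 20.

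The other paralog pairs were compared in the same way by their levels. Rps27 (chr3:90212522-90213651) and Rps27l (chr9:66946086-66949516), the latter known as a target of p53, have coding sequences of 252 bases each that are identical at 76.2%. Rps27 had 216, 82.9 and 87.4 normalised counts in controls, 112, 99.8 and 115 in ORX and 98.3, 115 and 89.9 in ORX+DHT. Rps27l had 104, 76.3 and 68.5 in controls, 77.5, 86.1 and 72.8 in ORX and 83.1, 63.8 and 72.1 in ORX+DHT. The 2 paralogs parted in Control 1, where Rps27 was among the most and Rps27l among the least raised members. Rpl22 had 250, 147 and 149 in controls, 145, 164 and 197 in ORX and 140, 146 and 146 in ORX+DHT, while its paralog Rpl22l1, which is outside the name rule, had 59.9, 26.5 and 21.8 in controls, 10.8, 24.7 and 28.1 in ORX and 15.2, 21.3 and 26.7 in ORX+DHT. Fold changes of Rpl22l1 were -0.71 (SE 0.41) for ORX and -0.65 (SE 0.36) for ORX+DHT against control, and 0.059 (SE 0.32) between the ORX groups, none past the test. Without Control 1 those against control were -0.28 (SE 0.35) and -0.22 (SE 0.29).

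The stalk genes and the 4 X-linked members were raised in Control 1 to different degrees. Against the mean of the other controls, Rplp0 was higher by 0.80, Rplp1 by 1.08 and Rplp2 by 1.15 on the log2 scale. Of the X-linked genes, Rpl36a and Rpl39 had the 2 highest differences of the family, while Rpl10 at 0.69 and Rps4x at 0.73 lay below its lower quartile. Rplp0 had 928, 535 and 527 normalised counts in controls, 551, 577 and 584 in ORX and 527, 518 and 559 in ORX+DHT. Rplp1 had 819, 384 and 390, then 316, 418 and 409, then 369, 406 and 399. Rplp2 had 355, 164 and 155, then 126, 160 and 180, then 180, 169 and 149. In all 3 stalk genes Control 1 was the highest library. Among the remaining 8 the groups overlapped, except that Rplp0 was higher in all ORX libraries than in Controls 2 and 3. Rps4x had 311, 180 and 194 in controls, 194, 189 and 231 in ORX and 199, 199 and 199 in ORX+DHT, and Rpl10, which joins the large subunit late in its assembly, 162, 86.2 and 117, then 81.5, 123 and 123, then 98.3, 99.6 and 87.9. Rps14 had 627, 325 and 297, then 282, 293 and 309, then 313, 336 and 332, so that ORX+DHT lay above ORX by 0.15 (SE 0.09, limma adjusted p 0.478).

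Genes that work with the family were examined as lists. Of 7 ribosomal proteins outside the name rule, 5 were tested, including Rack1, Fau and Rps3a1, and 0 passed in any comparison, with medians of -0.17 for ORX and -0.22 for ORX+DHT against control, and of 0.0027 between the orchiectomised groups. Without Control 1 the medians against control were -0.11 and -0.085. The 77 mitochondrial ribosomal proteins also had 0 calls, with medians, in the same order of comparisons, of -0.33, -0.27 and 0.053, and 74 of 77 were below 0 in ORX against control. Without Control 1 their medians against control were -0.088 and -0.048. They thus moved with the cytosolic family in Control 1, by a median of 0.69, but unlike that family their medians stayed below 0 without this library. In ORX against control 18 of the 77 did not overlap and were lower, against 8.06% of all genes. In ORX+DHT against control 9 did so, against 7.12%, and in both comparisons 0 were higher. The height of this list in Control 1 works against finding its genes above all controls. The list of 14 other messages with a terminal oligopyrimidine tract, among them elongation factors, also held 0 calls, with medians of 0.027 for ORX and -0.065 for ORX+DHT against control and of -0.034 between the ORX groups. Without Control 1 those against control were 0.12 and 0.039. Their median in Control 1 against the other controls was 0.18, from Eef1d with 328 normalised counts against 161 and 160, to Eif4b with 280 against 425 and 424.

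Of 26 genes of ribosome synthesis, such as RNA polymerase I subunits and nucleolar assembly factors, 24, 25 and 25 were tested and 0 passed, with medians of 0.039 for ORX and -0.026 for ORX+DHT against control and of -0.00035 between the ORX groups. Without Control 1 the medians against control were 0.054 and 0.13, so that the second changed sign. Of 13 genes that control ribosomal protein messages, 1 passed, in ORX+DHT against ORX, where the background is 4.08%. The list's medians against control were -0.0056 for ORX and 0.097 for ORX+DHT, and -0.12 and -0.023 without Control 1. The gene that passed was Eif4ebp1, which encodes 4E-BP1, a repressor of cap-dependent translation that mTORC1 inactivates. Its normalised counts were 47.4, 50.9 and 45.7 in controls, 30.4, 40.9 and 55.4 in ORX and 82.1, 65.7 and 79.0 in ORX+DHT, with every ORX+DHT library above every ORX library. It rose by 0.86 (SE 0.19, limma adjusted p 0.0129), and was above ORX in 3 of 3 libraries. The call was lost when ORX 1 (adjusted p 0.0557) or ORX+DHT 1 (0.0839) was left out, and with all 9 libraries in 1 limma fit (0.0565). Larp1, Mtor and Rptor did not pass in any comparison, and Rptor had 44.9 in Control 1 against 98.4 and 108 in the other controls.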

How the data were processed

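RNA from tibialis anterior muscle was measured in 9 libraries, 3 each of control, ORX and ORX+DHT mice. Per the labels' protocols, poly(A) RNA was made into libraries that keep the strand. Per the submitters' processing notes, Trim Galore 0.6.7, HISAT2 2.2.1, featureCounts 2.0.1, DESeq2 1.36.0 and build GRCm38 were used; whether counting used strand is not given in the sources used here. The authors deposited 2 tables of protein-coding genes, control with ORX (14596 genes) and ORX with ORX+DHT (14675 genes), whose values are a signal: read counts divided by 1 factor per library. All values (100%, tolerance 0.001) were whole multiples of that step, so reads were recovered. Sham columns were taken as Control by replicate number, and 0 value columns stayed unmapped.

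Levels in the text are on a joint scale, from median-of-ratios factors over 14300 genes shared by the tables. Comparisons were fitted with limma 3.58.1 (R 4.3.3) on log2(value + 1), within the deposited table where it holds both groups and on the joint scale for ORX+DHT against control. Genes needed a mean of at least 10, p-values were adjusted over all genes, and a pseudocount of 1 understates changes of low genes. edgeR 4.0.16 and DESeq2 1.42.0 on recovered reads were alternatives. Data were simulated with 200 changed genes, the same dispersion for every gene and no outlying library. There limma recovered 72%, 61% and 69% of genes changed by 2-fold, with 6.7%, 1.9% and 5.2% of calls false. These values are among 8631 genes for ORX against control, 8770 for ORX+DHT against ORX and 8595 for the remaining comparison. They do not measure the power of the real fits with Control 1, where the median standard error of a member was 0.251, against 0.125 between the ORX groups. Gene models came from GENCODE M21, copies from blastn 2.17.0 (98% identity, 75 bases), promoters from RefSeq. Named genes were those furthest from the family median in each comparison (3 per side), the 3 highest and 3 lowest in level, a set of paralogs, stalk genes, Rpsa and Rps6, and called genes of the lists. The members and lists were chosen with earlier results of these data known. The values of 1 further member are not reported here.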

Additional observations from a re-analysis of the deposited data

How the results depend on the processing

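In all 3 comparisons 0 ribosomal protein genes passed the test under each alternative run (25, 21 and 25 of them). The sign of the family median depended on Control 1. For ORX against control it was 0.078 without Control 1, 0.097 with TMM scaling, 0.12 with quantile normalisation, 0.089 with the length trend removed and 0.079 with all libraries in 1 fit, each without Control 1 as well. With the length trend taken from the other genes alone and all controls kept it was 0.0074. For ORX+DHT against control the same 5 settings without Control 1 gave 0.038, 0.040, 0.063, 0.049 and 0.038. These combined settings, and the trend from other genes, were chosen after seeing the data. Leaving out each replicate in turn, the median ranged from -0.44 to 0.078 for ORX against control, from -0.086 to 0.032 for ORX+DHT against ORX (0.032 without ORX replicate 3) and from -0.48 to 0.038 for ORX+DHT against control. The log2 ratio of Rpl3l to Rpl3 kept its sign, from -0.81 to -0.61, from 0.12 to 0.50 and from -0.59 to -0.20. The cause of these changes was not tested. Deviations of same-numbered libraries had r of -0.16 to 0.15 over 9 pairs, 1 of them over 0.1, and the numbers were not taken as pairing. Between ORX and ORX+DHT, however, same-numbered pairs had r of 0.063, 0.061 and 0.15. Each was above every pair of unlike number between these groups (-0.087 to 0.025). The labels do not name the animals, so whether these libraries pair is unknown. With the replicate number as a block the medians stayed at -0.26, -0.031 and -0.28, and 0 members passed. Calls over all genes were then 5, 571 and 3 against 5, 358 and 3. Calls over all genes moved by over 1.5 times in several settings. Against the 5 in ORX against control they were 51 without Control 1 (21 to 75 in the combined settings), 21 without Control 3, 1, 1 and 2 without each ORX replicate, 20 with the length trend removed (13 with the block added), 23 with all 9 libraries in 1 fit, 28 by DESeq2 and 16 without the filter on low genes. Against the 358 between the ORX groups they were 124 with all 9 libraries in 1 fit, 221 by DESeq2, 223 without ORX+DHT replicate 1 and 558 with the block and the length trend removed. Against the 3 for ORX+DHT set beside control they were 66 when Control 1 was left out (42 to 71 in the combined settings), 1 without Control 3, 0 to 2 without each ORX+DHT replicate, 15 with the length trend removed (7 with the block added), 11 with all 9 libraries in 1 fit, 6 with quantile normalisation and 13 by DESeq2. The median standard error of a member was 0.251 in both comparisons with control, 0.143 (ORX) and 0.128 (ORX+DHT) without Control 1, and 0.125 between the ORX groups. A median of 134 reads per member and library outside Control 1 limits what can be seen of a single member.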
